A study of Oryza sativa with 18 samples.

Results

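Rice takes up phosphate (Pi) with proton-coupled PHT1 transporters of the root plasma membrane and hands it to the xylem through PHO1-type exporters. The E2 ubiquitin-conjugating enzyme PHO2, a target of miR399, lowers the amount of transporter protein when Pi is ample. SPX proteins sense inositol pyrophosphates and, at high Pi, hold back PHR2, the MYB factor that switches on Pi starvation genes. Pi and Zn supply are known to affect each other's uptake in cereals, and the genes described here were examined for crosstalk of Zn supply with Pi status. They were 10 genes, chosen by name, among the 34716 loci of the gene table: the PHT1 transporters OsPT1 (Os03g0150600), OsPT2 (Os03g0150800), OsPT4 (Os04g0186400), OsPT6 (Os08g0564000) and OsPT8 (Os10g0444700), the exporter OsPHO1;2 (Os02g0809800), OsPHO2 (Os05g0557700), and the SPX genes OsSPX1 (Os06g0603600), OsSPX2 (Os02g0202200) and OsSPX3 (Os10g0392600). Each was found at 1 locus.

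The libraries came from 4-week-old Nipponbare (japonica) seedlings grown hydroponically. Roots and shoots were taken from resupplied plants (ZRR and ZRS, 3 days on 1.5 µM ZnSO4 after the Zn-free period), from Zn-deficient plants (ZMR and ZMS, 2 weeks without Zn), and from +Zn plants (ZPR and ZPS, 1.5 µM ZnSO4). In resupplied plants the 3 days on Zn came after the 2 weeks without it. Any effect of those days or of the transfer cannot be told apart from that of Zn. Each of the 6 groups had 3 libraries, each a pool of 3 seedlings. Roots were whole root systems and shoots were leaf plus stem. In such bulk tissue, fewer cells of a type and less RNA per cell cannot be told apart.

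Values are FPKM, the fragments of a locus scaled to its length and to the fragments mapped in the library. The depth behind them was between 3.67 and 7.75 reads per base for each FPKM, with the lowest in ZRR library 3 and all others at or above 6.0. The labels were checked with marker genes. The sum of 5 green tissue markers was 79.6 to 345 FPKM in roots and 2863 to 8611 FPKM in shoots, and that of 5 root markers was 759 to 3498 FPKM in roots and 4.12 to 17.8 FPKM in shoots. Of the root markers, OsRCc3 was listed at 0 in 6 of 9 root libraries and OsNRT2.1 in 8. Of the green tissue markers, PsbO overlapped between the tissues, with 2.81 to 120 FPKM in roots and 79.1 to 4592 FPKM in shoots. The value of 79.1 FPKM was in ZPS library 1, and the other green tissue markers did not overlap. The Zn-deficiency-inducible transporter gene OsZIP10 had 19.6 to 32.3 FPKM in ZMR against 0.749 to 0.984 FPKM in ZPR, and 28.4 to 49.6 FPKM in ZMS against 2.81 to 3.26 FPKM in ZPS. In ZRS library 1, 16.8% of the isoform FPKM lay in intronic, intergenic or similar classes of assembled transcript, against 1.79% to 5.14% in the other 17 libraries.

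The exporter OsPHO1;2 was the most abundant of the 10 genes in roots in all 3 Zn states. It loads Pi into the root xylem, and its locus lies at chr2:34609720-34615138 of IRGSP-1.0, on the + strand, with up to 16 exons. It had 202, 209 and 200 FPKM in ZRR, 170, 202 and 166 FPKM in ZMR, and 181, 194 and 153 FPKM in ZPR. In shoots it had 4.36, 12.9 and 8.27 FPKM in ZRS, 11.2, 13.1 and 13.3 FPKM in ZMS, and 8.11, 15.5 and 12.2 FPKM in ZPS. Every root library was thus far above every shoot library, with the lowest shoot value in ZRS library 1. OsPHO2 (chr5:27739987-27749525, up to 12 exons) came next. It had 62.8, 63.2 and 58.0 FPKM in ZRR, 44.2, 64.2 and 66.1 FPKM in ZMR, and 50.3, 62.7 and 46.1 FPKM in ZPR. Its shoot values were 9.11, 19.9 and 16.6 FPKM in ZRS, 11.7, 17.4 and 19.3 FPKM in ZMS, and 9.16, 17.1 and 18.2 FPKM in ZPS. Roots and shoots did not overlap for OsPHO2 either, and in shoots it was the gene of highest mean, its range overlapping that of OsPHO1;2 in each group.

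Among the transporters, OsPT2 had the largest root to shoot difference. It is a low-affinity carrier of the root stele and also takes up selenite. Its FPKM were 67.8, 40.5 and 17.0 in ZRR, 24.1, 60.9 and 50.9 in ZMR, and 50.2, 36.2 and 35.4 in ZPR, against 0.196 to 0.539 in the 9 shoot libraries. OsPT1, a neighbour of OsPT2 on chromosome 3 with a role in Pi uptake at ample Pi, was about an order of magnitude lower in roots. OsPT1 had 6.32, 4.47 and 2.65 FPKM in ZRR, 3.30, 6.22 and 5.34 FPKM in ZMR, and 4.04, 4.18 and 4.43 FPKM in ZPR. In shoots OsPT1 had 3.45, 0.993 and 1.32 FPKM in ZRS, 1.08, 1.46 and 2.14 FPKM in ZMS, and 1.90, 0 and 5.77 FPKM in ZPS, so that +Zn shoots alone covered the whole shoot range. OsPT4, another PHT1 carrier, had 5.17, 7.20 and 0.493 FPKM in ZRR, 5.33, 6.80 and 4.77 FPKM in ZMR, and 3.57, 1.99 and 5.52 FPKM in ZPR. Its shoot values lay between 1.0 and 4.13 FPKM. The low value of 0.493 FPKM was in ZRR library 3, the library of least depth, which was also the lowest of its group for OsPT1 and OsPT2. The same library had the lowest root marker sum, 759 FPKM against 1877 FPKM or more in the other roots, and was the highest of 9 for 31.3% of root loci. The part of these in its values was not tested.

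The high-affinity transporters OsPT6 and OsPT8 were listed at or near 0 in most libraries. A listed 0 does not by itself show low expression here. Among loci with 1 exon and a mean above 0.5 FPKM, 62.6% mixed values of 0 and above 1 FPKM within a group. Among loci with 2 or more exons and such a mean, the share was 3.56%. OsNRT2.1, for example, was listed at 0 in 8 of 9 root libraries, while its partner gene OsNAR2.1 had 11.6 to 1111 FPKM in roots. OsPT6, a single-exon locus, was above 0.0111 FPKM in 1 library only, ZPR library 2, with 1.20 FPKM, and was listed at 0 in 15 of 18. Its mean of 0.068 FPKM left it out of the loci behind these shares, and OsPT8 fell among the loci of 2 or more exons. OsPT8 had 34.5, 0.0138 and 17.0 FPKM in ZRR, and no more than 0.0528 FPKM in any ZMR or ZPR library. In shoots OsPT8 had 0, 15.9 and 0.318 FPKM in ZRS, at most 0.0486 FPKM in ZMS and at most 0.269 FPKM in ZPS. The high values thus fell in 2 of 3 resupplied root libraries and 1 of 3 resupplied shoot libraries, and the third resupplied root library was as low as the others. These high values were nearly all in 1 annotated isoform with a single exon, Os10t0444700-01, which held 100% of the isoform FPKM of OsPT8 in ZRR library 1, 93.0% in ZRR library 3 and 99.8% in ZRS library 2. That isoform was listed at 0 in 13 of 18 libraries, and the isoform of 2 exons did not exceed 1.56 FPKM in any. The values are therefore given per library, and no level of OsPT8 is assigned to a Zn state. The locus is overlapped on the other strand by Os10g0444850, which had 12.2, 0 and 0.1 FPKM in ZRR, 10.1, 7.32 and 0 FPKM in ZMR and 5.08, 0 and 0 FPKM in ZPR. Nothing in the sources used here says that the counting used strand, so reads of such pairs may not be told apart. OsPT6 passed the filter on low values (at least 0.5 FPKM in at least 3 libraries) in no fit, and OsPT8 only in the fit of all 18 libraries, so neither was tested for Zn within a tissue.

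The SPX genes were low, with root and shoot values that overlapped. OsSPX1 had 3.10, 3.21 and 3.20 FPKM in ZRR, 2.43, 3.53 and 3.61 FPKM in ZMR, and 2.79, 3.69 and 4.79 FPKM in ZPR. In shoots OsSPX1 had 5.08, 6.20 and 2.55 FPKM in ZRS, 1.75, 2.11 and 1.82 FPKM in ZMS, and 6.29, 2.47 and 2.24 FPKM in ZPS. All 3 ZMS libraries were below every ZRS and every ZPS library. OsSPX2, which like OsSPX1 restrains PHR2, had 2.33, 2.45 and 3.84 FPKM in ZRR, 7.22, 6.44 and 6.18 FPKM in ZMR, and 9.25, 1.09 and 2.69 FPKM in ZPR. Resupplied roots were below all Zn-deficient roots, while the +Zn roots spanned both. In shoots OsSPX2 had 0.830, 9.25 and 0.760 FPKM in ZRS, 0.765, 2.31 and 2.23 FPKM in ZMS, and 2.91, 2.64 and 2.23 FPKM in ZPS. OsSPX3, a strongly Pi-starvation-induced member, stayed below 1 FPKM throughout, between 0.181 and 0.964 FPKM in roots and between 0 and 0.951 FPKM in shoots.

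**Figure D1:**
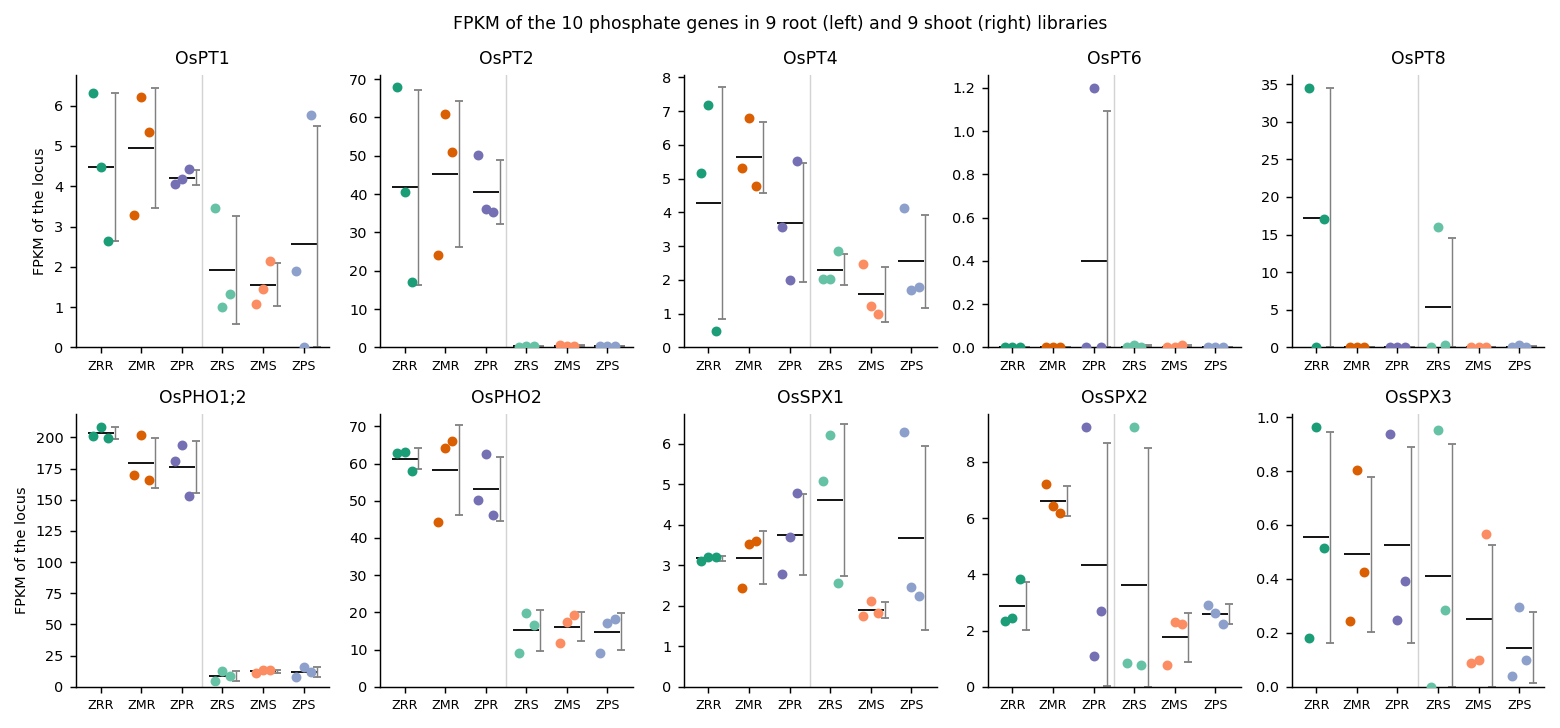
FPKM of each gene (vertical axis, linear, own scale per panel) in the 3 libraries of each group, with roots left of the grey line and shoots right of it. Points are libraries 1 to 3 from left to right, black lines are means and grey bars are ± SD (n = 3, cut off at 0). OsPHO1;2, OsPHO2 and OsPT2 are higher in every root library than in any shoot library, and the 3 high OsPT8 values of 34.5, 17.0 and 15.9 FPKM are all in resupplied libraries.

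Root and shoot levels were compared within each Zn state, on the log2(FPKM + 0.5) scale with limma over 24431 loci. A gene was called where its log2 fold change was 1 or more in either direction and its adjusted p was not above 0.05. This scale understates the change of genes as low as OsPT2 in shoots. OsPT2, OsPHO1;2 and OsPHO2 were higher in roots in all 3 states. For OsPT2 the log2 fold change was 5.51 in ZRR/ZRS (adjusted p = 7.24e-09), 5.58 in ZMR/ZMS (adjusted p = 2.94e-08) and 5.52 in ZPR/ZPS (adjusted p = 3.16e-08). For OsPHO1;2 it was 4.62, 3.78 and 3.87, and for OsPHO2 2.04, 1.83 and 1.85, in the same order of states. OsPT4 was also called in ZMR/ZMS, at 1.62 (95% interval 0.35 to 2.89, adjusted p = 0.0374), and this call was lost under both other scalings (1.34 and 1.31), with no filter on low values, and without ZMR library 1, ZMR library 2, ZMR library 3, ZMS library 2 or ZMS library 3, with log2 fold changes of 1.42 to 1.72. OsSPX2 missed the threshold in ZMR/ZMS at 1.73 (adjusted p = 0.0555), and was called there when ZRS library 2 (adjusted p = 0.00996), ZRS library 1 or 3, or ZPR library 1 or 2 was left out of the shared fit (adjusted p between 0.033 and 0.0493).

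In all, 3 of 9 tested genes were called higher in roots in ZRR/ZRS, 4 of 9 in ZMR/ZMS and 3 of 9 in ZPR/ZPS, and none was called lower. Over all loci 39.4%, 31.9% and 34.1% were called in these comparisons, and 27.6%, 18.5% and 20.5% were called higher in roots. The median log2 fold change of all loci was itself 0.58, 0.36 and 0.38, and it shrank to 0.05 to 0.07 with median ratio scaling. The fold changes of OsPT2, OsPHO1;2 and OsPHO2 lay well above that shift. For OsSPX1, OsSPX3 and OsPT1 a root to shoot difference was not called in any state, and the intervals were wide, from -0.14 to 2.67 for OsPT1 in ZPR/ZPS. OsPT8 passed the filter in this fit only through the 3 libraries in which it was high, so its fold changes are not read.

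**Figure D2:**
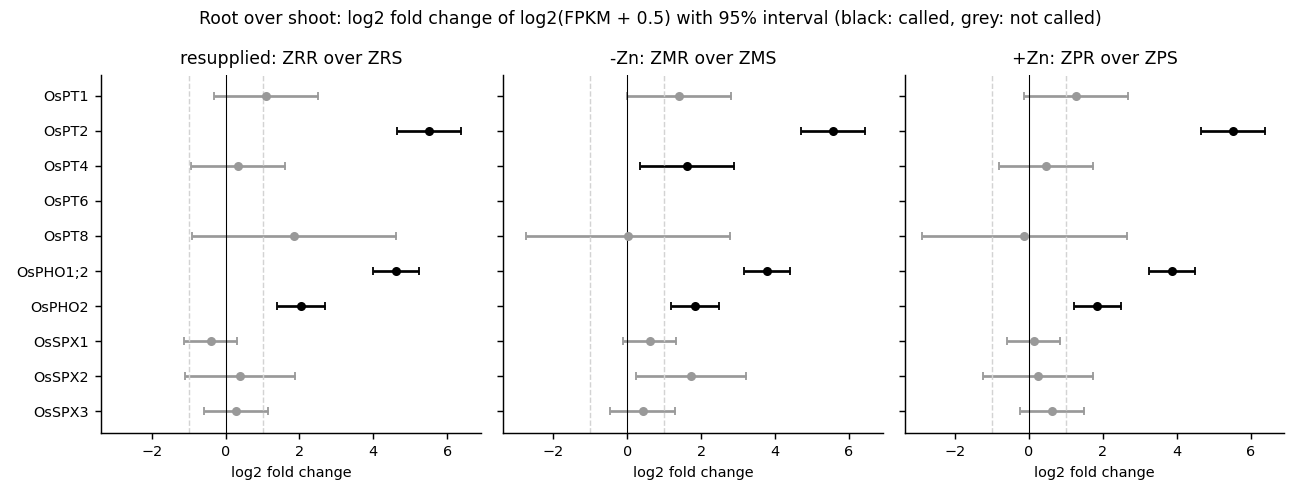
Log2 fold change of roots over shoots (horizontal axis) with its 95% interval from limma for the 9 tested genes, one panel per Zn state. Black points passed both thresholds (a log2 fold change of 1 or more in either direction, with adjusted p not above 0.05), grey points did not, and dashed lines mark a log2 fold change of 1 in either direction. OsPT2 sits at 5.51 to 5.58 and OsPHO1;2 at 3.78 to 4.62 in the 3 states.

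Across Zn states within a tissue, no gene of the 10 passed the thresholds in any of the 6 comparisons. By limma, 0 of 8 tested genes were called in ZRR/ZMR, ZMR/ZPR and ZRR/ZPR and 0 of 6 in ZRS/ZMS, ZMS/ZPS and ZRS/ZPS. Calls were rare over all loci as well, at 0.124%, 0.046% and 0.023% of 21717 root loci and at 0.0683%, 0.0878% and 0.0244% of 20512 shoot loci, in those orders. These shares are those of this fit. With Cuffdiff and the same thresholds, the authors reported many more genes in each Zn comparison they made. At an unadjusted p below 0.05 there was 1 gene in 1 comparison, OsSPX1 in ZRS/ZMS. In a simulation of ZMR/ZPR, the fit called 6 of 50 loci changed by a log2 of 1 and 32 of 50 changed by a log2 of 2, with 6 false calls. In that of ZMS/ZPS it called 9 and 32 of 50, with 1 false call. A log2 of 1 is the call threshold itself, which alone keeps such loci from being called in part. A change of 2-fold could thus be missed.

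For the abundant root genes the intervals were narrow. OsPHO1;2 differed by 0.19 in ZRR/ZMR (95% interval -0.19 to 0.56), by 0.03 in ZMR/ZPR (-0.35 to 0.40) and by 0.21 in ZRR/ZPR (-0.16 to 0.59). OsPHO2 differed by 0.10 in ZRR/ZMR (-0.35 to 0.54) and by 0.12 in ZMR/ZPR (-0.32 to 0.57). A 2-fold change of either gene in roots lay outside these intervals. OsPT2 varied more among replicates, and its interval in ZMR/ZPR was -1.09 to 1.24 around a log2 fold change of 0.07.

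Among the 6 genes tested in shoots, OsSPX1 had the largest difference with Zn. It averaged 4.61 ± 1.87 FPKM in ZRS, against 1.89 ± 0.191 FPKM in ZMS (SD, n = 3 each), a log2 fold change of 1.02 (95% interval 0.10 to 1.94, adjusted p = 0.803, limma). In ZMS/ZPS it was -0.67 (95% interval -1.59 to 0.25, adjusted p = 1), and these 2 comparisons share the ZMS libraries. The value in ZRS/ZMS was 0.92 without ZRS library 1, 0.79 without ZRS library 2 and 1.36 without ZRS library 3. That in ZMS/ZPS was -0.26 without ZPS library 1, which alone held 6.29 FPKM. The difference between tissues in the response to resupply was -1.01 (95% interval -2.03 to 0.00, adjusted p = 0.863), so a difference between roots and shoots was not shown.

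Among the 8 genes tested in roots, the largest difference with Zn was that of OsSPX2, which averaged 2.88 ± 0.839 FPKM in ZRR, against 6.61 ± 0.541 FPKM in ZMR (SD, n = 3 each). The log2 fold change was -1.10 (95% interval -2.39 to 0.19, adjusted p = 0.983), and it stayed between -1.30 and -0.99 with any 1 library left out. In ZMR/ZPR it was 0.95 (95% interval -0.34 to 2.24), with +Zn libraries on either side of the ZMR values. No gene of the 10 was called in the difference between tissues, either for the response to Zn deficiency (0 of 9, 0.0655% of all loci) or for that to resupply (0 of 9, 0.106% of all loci). The 9 include OsPT8, whose fold changes are not read, so it is no evidence of an equal response.

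Groups that did not overlap were found for at most 1 gene in a comparison. These were 1 of 8 in ZRR/ZMR (OsSPX2, 7.61% of all loci), 0 of 8 in ZMR/ZPR (9.23%) and 1 of 8 in ZRR/ZPR (OsPHO1;2, 8.34%). In shoots they were 1 of 6 in ZRS/ZMS (OsSPX1, 10.1%), 1 of 6 in ZMS/ZPS (OsSPX1, 6.5%) and 0 of 6 in ZRS/ZPS (8.43%). The median log2 fold change of the tested genes was 0.19 in ZRS/ZMS, where that of all loci was -0.19, and -0.08 in ZRR/ZMR, where that of all loci was 0.07. The shift of all loci in ZRS/ZMS was 0.01 after either other scaling. The log2 fold change of OsSPX1 was then 1.24 under both, in place of 1.02 beside the shift of -0.19. It was not called under either scaling (adjusted p = 0.9996 in both, limma).

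**Figure D3:**
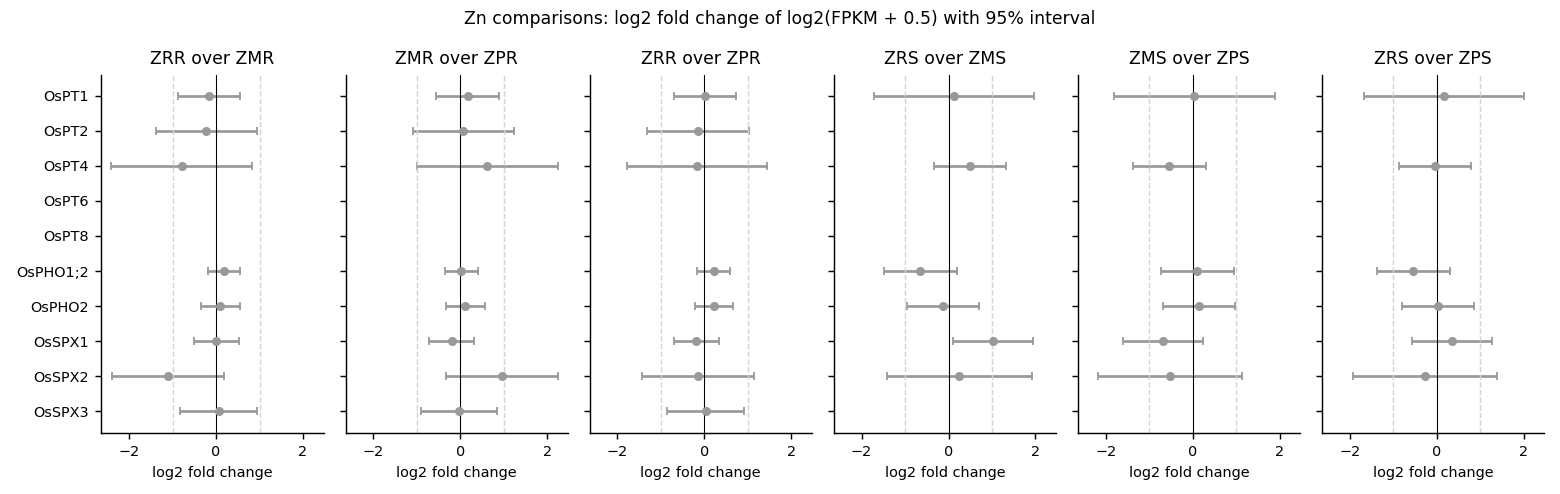
Log2 fold change between Zn states (horizontal axis) with its 95% interval from limma, for the genes tested in roots (left 3 panels) and shoots (right 3 panels). Dashed lines mark a log2 fold change of 1 in either direction, no point passed the thresholds, and genes with no point were not tested there. The interval of OsSPX1 in ZRS over ZMS, 0.10 to 1.94, is the only one that leaves out 0.

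Library 2 of ZRS was high for some genes of this pathway. It was the highest of the 9 shoot libraries for OsPT8 (15.9 FPKM), OsSPX2 (9.25 FPKM), OsSPX3 (0.951 FPKM) and OsPHO2 (19.9 FPKM), and the second highest for OsSPX1 (6.20 FPKM). Of 6 genes listed as Pi starvation markers, 5 were highest there. These include OsGDPD2, a glycerophosphodiester phosphodiesterase gene, with 27.0 FPKM against 2.64 to 5.90 FPKM in the other 8, and OsMGD3, a galactolipid synthase gene, with 4.17 FPKM against 0.133 to 0.479 FPKM. The acid phosphatase genes OsPAP10a (12.4 FPKM) and OsPAP23 (3.38 FPKM) and the sulfolipid gene OsSQD1 (74.6 FPKM) were also highest in it, with smaller margins, and OsSQD2 was not. OsSPX5, a close relative of OsSPX3, had 0.527 FPKM in it against at most 0.173 FPKM in the others.

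This library was the highest of 9 for 23.5% of all 23381 shoot loci that reached 0.5 FPKM, so being highest there is not in itself unusual. Of all 26 other Pi genes that reached this level in shoots, markers included, 7 were highest in it and 8 in ZRS library 3. It was at least 4 times the shoot median, and highest, for 2.64% of these loci, and for OsPT8, OsSPX2 and OsSPX3 among 9 of the 10 genes and OsGDPD2 and OsMGD3 among the 6 markers. The library was singled out after its values were seen, and no test was made of it. In it, OsPT2 (0.310 FPKM) and OsPHO1;2 (12.9 FPKM), both higher in roots in each Zn state, lay in the range of the other shoots. OsPHO2 (19.9 FPKM), likewise higher in roots, was above that range, next to 19.3 FPKM in ZMS library 3. The root marker sum of ZRS library 2, 8.17 FPKM, was within that of the other shoots. Its green marker sum was 2863 FPKM, the lowest of the shoots, with ZMS library 3 at 2886 FPKM and the others at 5522 FPKM or more. Of these markers PsbO was uneven, with 306 FPKM in it, 340 FPKM in ZMS library 3 and 79.1 FPKM in ZPS library 1. PsbO had 2822 to 4592 FPKM in the other shoots. RbcS a, RbcS b and Lhcb a were within the range of the other shoots in ZRS library 2, and Lhcb b was lowest there at 552 FPKM. The part of green tissue content in the values of OsPT8, OsSPX2 and OsSPX3 was not tested. For Zn, ZRS library 2 was like the rest of its group, with 1.46 FPKM of OsZIP10 against 1.98 and 2.1 FPKM in ZRS libraries 1 and 3. Without it, OsSPX2 was called by limma in ZRR/ZRS, at 1.36 (adjusted p = 0.0481) in place of 0.38. As OsSPX2 was among the genes for which this library stood out, this is no support for a call.

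**Figure D4:**
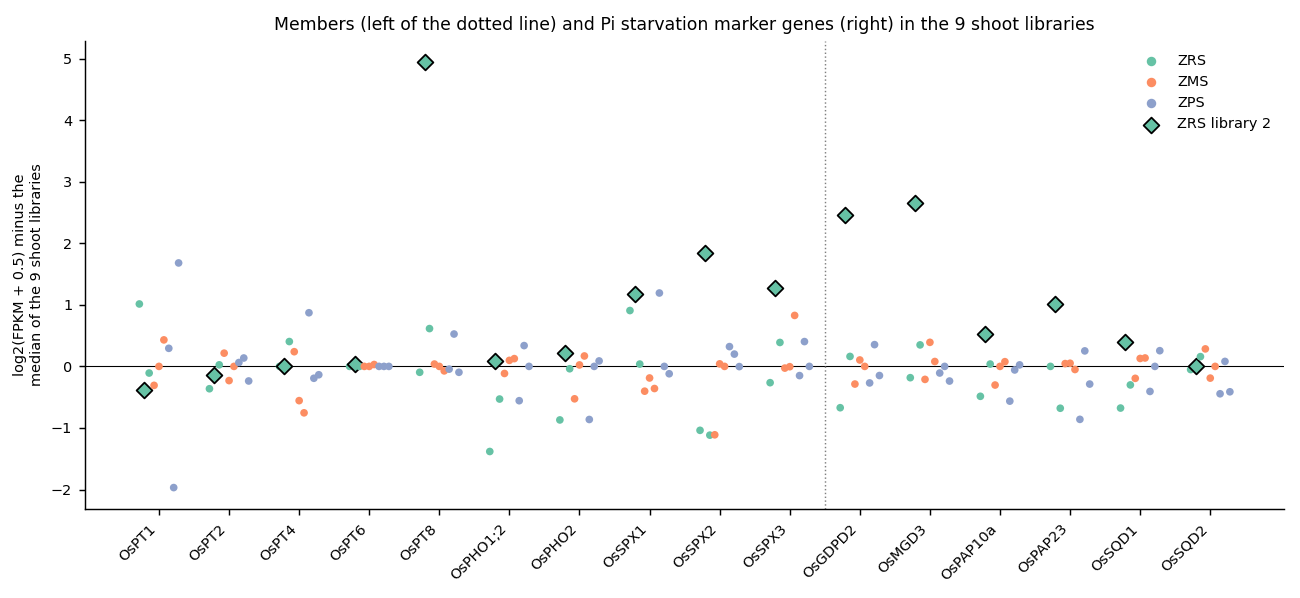
Difference of log2(FPKM + 0.5) from the median of the 9 shoot libraries (vertical axis) for the 10 genes and the 6 Pi starvation markers with a locus, each point 1 library. The outlined diamond, ZRS library 2, lies above all other shoot libraries for OsPT8, OsSPX2, OsSPX3 and OsPHO2 and for 5 of the 6 markers, and in the middle of them for OsPT2, OsPT4 and OsSQD2.

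Below the level of the locus, the assembled transcripts differed from the annotated ones. For OsPT2, at least 61.7% of the isoform FPKM in every root library was in 1 assembled isoform of the locus, and the annotated transcript Os03t0150800-01 held at most 1.66%. A longer assembled isoform took 38.3% in ZRR library 1 and at most 1.09% in the other roots. The locus value divides by the length of all its exons (3343 bases), so the summed isoform FPKM of OsPT2 in roots was higher than its locus value, between 29.3 and 105 FPKM. For OsPHO1;2 the annotated transcript held 33.5% to 93.1% in roots, with ranges of 53.5% to 89.7% in ZRR, 33.5% to 87.5% in ZMR and 48.2% to 93.1% in ZPR that overlapped. For OsPHO2 the transcript Os05t0557700-01 held nearly all of the signal except in ZMR library 3 (47.6%) and ZRS library 2 (58.0%). The second annotated transcript, Os05t0557700-02, reached 7.76% in ZRR library 1. OsSPX1 had 2 annotated transcripts in nearly even shares. Transcript -02 held 41.1% to 50.9% in 16 libraries but 74.1% in ZRS library 1 and 76.8% in ZPS library 1, which are 2 of the 3 shoot libraries with the highest OsSPX1. The part of this in the OsSPX1 difference was not tested.

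The locus of OsPHO1;2 is flanked by transcripts of the opposite strand that overlap its ends. Os02g0809700, annotated for Pi homeostasis, overlaps its 5′ end as a single exon at chr2:34609403-34611241. A natural antisense transcript of OsPHO1;2 is known to favour its translation under Pi starvation. Os02g0809700 had 26.2, 39.0 and 16.6 FPKM in ZRR, 25.9, 37.2 and 34.6 FPKM in ZMR, and 29.4, 35.6 and 27.7 FPKM in ZPR, against 0 to 3.17 FPKM in shoots. By limma it was higher in roots by a log2 fold change of 4.20 in ZRR/ZRS, 4.57 in ZMR/ZMS and 3.71 in ZPR/ZPS (adjusted p = 6.27e-05, 2.75e-05 and 0.000197). This locus was named after its values were seen. As the use of strand is not given, its reads may not be told apart from those of OsPHO1;2, which had 153 to 209 FPKM in roots. The part of OsPHO1;2 reads in its values was not tested. At the other end, Os02g0809900 had 8.67 FPKM in ZRS library 2 against 0.212 to 2.51 FPKM in the other shoots.

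Over the 9 root libraries, OsPT1 and OsPT2 varied together, with a Pearson r of 0.94 on the log2(FPKM + 0.5) scale. The points share library depth, and the reads were aligned with several placements allowed, so reads common to the paralogs could be split between them. OsPHO1;2 and OsPHO2 had an r of 0.63 in roots and 0.77 in shoots. Of all tested root loci, the most like OsPT2 were Os06g0636100 (r of 0.95), a hypothetical conserved gene, and Os05g0573300 (r of 0.95), similar to a CTP synthase, which was also among the 2 most like OsPT1 (r of 0.95). The closest to OsPHO2 in roots was an unannotated locus, with an r of 0.97, and the closest to OsSPX1 in shoots was Os12g0611500, with an r of 0.96.

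Of 33 other genes of Pi transport and signalling, 32 had a locus, and OsIPS1 did not. No Zn comparison called any of the 22 tested in roots or the 21 tested in shoots, and their median log2 fold changes were between -0.12 and 0.03. Among the regulators, OsPHR2, the central activator, had 25.8, 30.8 and 25.9 FPKM in ZRR, 31.4, 33.1 and 31.1 FPKM in ZMR, and 26.1, 35.2 and 31.4 FPKM in ZPR. Its shoot values were 17.3 to 29.2 FPKM. OsPTF1, a bHLH factor of Pi starvation tolerance, had 15.7 to 33.2 FPKM in roots and 10.2 to 18.3 FPKM in shoots, and OsPHR1 had 12.6 to 17.9 and 6.33 to 10.1 FPKM. OsNLA1, an E3 ligase for PHT1 transporters, had 12.9, 20.3 and 13.2 FPKM in ZMR, against 7.64, 9.5 and 9.37 FPKM in ZPR. The ZMR and ZPR values of OsNLA1 did not overlap, as was so for 3 of the 22 tested genes of this list (9.23% of all loci). Its log2 fold change was 0.75 (95% interval 0.23 to 1.27, adjusted p = 0.872, limma). OsNLA1 was the 1 gene of these 22 with an unadjusted limma p below 0.05 in ZMR/ZPR. In ZRR/ZPR 3 of 22 were below it, so OsNLA1 does not stand apart from the list. Groups did not overlap for 4 of 22 in ZRR/ZMR (7.61% of all loci) and 4 of 22 in ZRR/ZPR (8.34%). In shoots the counts were 1 of 21 in ZRS/ZMS (10.1%), 2 of 21 in ZMS/ZPS (6.5%) and 0 of 21 in ZRS/ZPS (8.43%).

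Root and shoot levels of this wider list differed in both directions. In ZRR/ZRS 4 of 24 tested genes were higher and 7 lower in roots, in ZMR/ZMS 6 and 6, and in ZPR/ZPS 3 and 6. Beside the shares of all loci called higher in roots given above, 11.8%, 13.4% and 13.5% were called lower. OsPHR3, OsSPX5 and OsGDPD2 were higher in roots in all 3 states, though OsPHR3 in ZRR/ZRS (1.06) lost its call under 5 alternatives (down to 0.50 with median ratio scaling) and OsSPX5 in ZMR/ZMS (1.42) under 1, with a pseudocount of 1 (0.92). OsGDPD2 had 33.5 to 46.5 FPKM in roots and 2.64 to 27.0 FPKM in shoots. Lower in roots in all 3 were OsSPX-MFS1 and OsSPX-MFS2, of the vacuolar Pi transporter family, the PHO1 homologue OsPHO1;3, the plastid transporter OsPHT2;1, and the sulfolipid genes OsSQD1 and OsSQD2. OsSPX-MFS1 had 0.0494 to 0.280 FPKM in roots and 9.76 to 15.9 FPKM in shoots, OsPHO1;3 had 0.279 to 0.636 and 3.54 to 7.54 FPKM, and OsPHT2;1 had 0.298 to 3.69 and 35.4 to 84.4 FPKM. OsPHO1;3 and OsPHO1;2, of the same family, thus had opposite root to shoot orders. The vacuolar exporter OsVPE1 was abundant in both organs, with 42.8 to 81.3 FPKM in roots and 25.6 to 72.4 FPKM in shoots. OsSPX4 had 4.06 to 9.22 FPKM in roots and 3.56 to 6.45 FPKM in shoots. Of the other PHT1 genes, OsPT12 reached 1.01 FPKM in 1 library, and OsPT10 (up to 0.538 FPKM) and OsPT13 (up to 0.338 FPKM) stayed lower.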

How the data were processed

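Poly(A) RNA was sequenced by the authors as paired-end reads, aligned with TopHat 2.1.1 to IRGSP-1.0 with RAP-DB annotation, several alignments per read being allowed, and summarized with Cufflinks and Cuffdiff 2.1.1. The authors deposited FPKM per locus and per isoform for 18 libraries, and the coverage signal of each isoform. The tool that merged loci and the use of strand are not given in the sources used here. Coverage over FPKM, constant within a library, was used as depth.

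Group means of log2(FPKM + 0.5) were compared in limma (version 3.58.1 under R 4.3.3, trended eBayes, no covariate), on 9 libraries for Zn comparisons and on all 18 for tissue comparisons and interactions. Loci had at least 0.5 FPKM in at least 3 libraries of the fit. A call required a log2 fold change of 1 or more in either direction with a Benjamini-Hochberg adjusted p, over all tested loci, not above 0.05. The fit was tested on simulated data. Replicates were separate pools, so p-values measure the spread between pools.

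Members and lists were chosen with earlier results of these data known. Named are all 10 members, other listed genes by role and level, and overlapping or most similar loci. Same-numbered libraries deviated together (r above 0.1 for all 3 numbers) in ZMS/ZPS, ZRS/ZMS and ZMR/ZPR, a weak hint from the data alone. In no comparison did every library correlate best with that of its own number. Member sequences were not analysed here. Alternatives were other pseudocounts, filters, scalings, sample sets, zeros as missing, a replicate block, each library left out and, chosen after seeing the data, the sum of isoform FPKM. Among loci with a mean above 0.5 FPKM over the 18 libraries, single-exon loci mixed values of 0 and above 1 FPKM within a group in 62.6% of cases. The share was 3.56% for loci with 2 or more exons.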

Additional observations from a re-analysis of the deposited data

How the results depend on the processing

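No member result was reversed. Of 87 results over all comparisons and their 2031 alternatives, 2009 stayed on the same side of the thresholds, 8 lost a call and 14 gained one, and 122 uncalled values changed sign. The count of members called stayed at 0 in all 6 Zn comparisons and in both differences between tissues under every alternative run. With a replicate block, a paired fit, the count was 0 in each of the 6 Zn comparisons, and no call of a member changed. Over all alternatives the count was 3 to 4 in ZRR/ZRS, 3 to 5 in ZMR/ZMS and 3 to 4 in ZPR/ZPS, and OsPT2, OsPHO1;2 and OsPHO2 gave none of the lost or gained calls. All of those were of OsPT1, OsPT4, OsPT8 or OsSPX2. With zeros taken as missing, OsPT1 was called in ZMR/ZMS (1.40, adjusted p = 0.0153, limma) and ZRR/ZRS (1.11, adjusted p = 0.0383), as it was without ZPS library 2, the library at 0. Without ZPS library 3, OsPT1 was called in ZPR/ZPS (2.11, adjusted p = 0.00879) and ZMR/ZMS, and without ZRR library 3, OsPT4 was called in ZRR/ZRS (1.25, adjusted p = 0.0215). OsPT8 was called in ZRR/ZRS only when ZRR library 2, its low library, was left out, which is no support for a call. Among the other Pi genes, 21 calls were lost, 34 gained and 0 reversed, all between roots and shoots. OsPT6 was not tested.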
